A study of Mus musculus with 6 samples.

Results

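Glycolysis is the pathway by which a cell splits glucose into pyruvate, and lactate dehydrogenase then turns pyruvate into lactate. HIF-1α, encoded by Hif1a, is the oxygen-regulated subunit of a transcription factor that raises the expression of glycolytic enzymes. Its protein is destroyed when oxygen is plentiful, so the level of its mRNA is not a measure of its activity. T cells increase glycolysis on activation, and Tregs are known to rely on it less than effector T cells do. The 10 genes described here are Hif1a and 9 genes of glycolytic enzymes, Hk1, Hk2, Pfkl, Aldoa, Gapdh, Pgk1, Eno1, Pkm and Ldha. They were picked out by gene symbol, with earlier results of these data known, and all 10 were found among the 15319 genes listed in the deposited counts.

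The RNA-Seq profiled tumor-infiltrating Tregs from lungs colonized by LLC, a mouse lung carcinoma line. The WT group carried Foxp3Yfp-Cre alone, and the cKO group carried Foxp3Yfp-Cre together with Xrcc6flox/flox, floxed alleles of the gene of Ku70, on the C57BL/6J background. Cre is driven by Foxp3 in both groups, so the deletion is directed to Foxp3-expressing cells. Mice of 8 to 10 weeks received LLC cells through the tail vein, tumors were taken after 21 days, and each group gave 3 libraries. The labels do not say whether the 3 libraries of a group came from separate animals, so p-values measure only the spread between these libraries. In bulk RNA, fewer cells of a type and less RNA per cell cannot be told apart.

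Total counts ranged from 19032620 to 23159815 per library. WT replicate 2 stood apart, with 11513 genes detected against 14442 to 14737 in the other libraries, and a highest correlation with another library of 0.93 where the others reached at least 0.991. The fold changes of the 10 genes are therefore given with and without it, and values per library follow the order of replicates 1, 2 and 3 throughout. Xrcc6 was at 20.9, 63.1 and 23.8 CPM (the count of a gene relative to the library total after scaling by TMM, the trimmed mean of M-values) across the WT libraries, against 5.24, 3.51 and 4.18 CPM across the cKO libraries, with no overlap between the groups. The Treg and T cell markers Foxp3, Il2ra, Ctla4, Ikzf2, Cd4, Cd3e and Cd3d all had counts in every library, with a summed level of 3963 to 5257 CPM in the WT group and 4294 to 4761 CPM in the cKO group. All 10 macrophage markers had counts, summing to 194 to 774 CPM in the WT group and 252 to 1146 CPM in the cKO group. Markers of lung epithelium and carcinoma cells summed to at most 109 CPM and those of neutrophils to at most 20.5 CPM. Of 9 neutrophil markers with counts, 3 had an unadjusted p under 0.05 from edgeR and a higher cKO level (background 0.94%), namely S100a9, Retnlg and Ngp, with at most 43 counts in any library, while the summed level of all 9 overlapped, at 11.5 to 20.5 CPM in WT and 16.0 to 19.9 CPM in cKO libraries. Of 6 B cell markers 1 was likewise higher, and their sums were 16.1 to 25.5 CPM in WT and 12.4 to 49.6 CPM in cKO libraries. Red blood cell markers summed to 0 to 9.75 CPM in WT and 10.9 to 36.1 CPM in cKO libraries, and the part of these cells in the values below was not tested.

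HIF-1 recognizes the letters ACGTG or GCGTG in hypoxia response elements, so the promoter windows of the 10 genes were read for them on both strands. RefSeq lists 17 windows for these genes on GRCm38.p6, each from 250 bases before to 50 bases after a transcription start. Of these, 14 windows held at least 1 match, or 82.4%, and every gene had such a window. The last 2 windows of Aldoa overlap and share their match, as do those of Eno1, so some matches count more than once. The same letters occurred in 43.8% of the 32851 windows of all genes and in 63.9% of the 8683 windows of genes with at least 10 CPM. Counted by gene, 69.8% of the 6800 genes of at least 10 CPM with a window had a match. The 250 bases before the start are shown for 4 members, Hif1a itself, Hk2 and Pgk1, whose levels varied most between libraries, and Ldha, which had the most matches in a single window. Capitals mark each match, and CACGTG reads as a match on both strands, so that it counts as an overlapping pair.
Hif1a: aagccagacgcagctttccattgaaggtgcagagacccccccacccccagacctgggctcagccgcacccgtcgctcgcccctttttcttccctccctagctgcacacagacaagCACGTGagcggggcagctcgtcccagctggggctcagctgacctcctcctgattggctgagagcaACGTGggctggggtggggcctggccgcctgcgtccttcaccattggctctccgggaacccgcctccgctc
Hk2: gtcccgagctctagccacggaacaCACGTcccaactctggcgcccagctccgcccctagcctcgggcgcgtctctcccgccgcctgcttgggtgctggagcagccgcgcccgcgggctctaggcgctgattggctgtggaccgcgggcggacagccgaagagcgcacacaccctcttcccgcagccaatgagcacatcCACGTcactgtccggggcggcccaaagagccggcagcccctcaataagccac
Pgk1: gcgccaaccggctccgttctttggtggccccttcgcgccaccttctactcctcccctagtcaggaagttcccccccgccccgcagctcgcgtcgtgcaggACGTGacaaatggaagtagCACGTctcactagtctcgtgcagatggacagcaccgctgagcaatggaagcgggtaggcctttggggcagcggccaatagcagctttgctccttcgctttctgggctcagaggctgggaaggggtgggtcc
Ldha: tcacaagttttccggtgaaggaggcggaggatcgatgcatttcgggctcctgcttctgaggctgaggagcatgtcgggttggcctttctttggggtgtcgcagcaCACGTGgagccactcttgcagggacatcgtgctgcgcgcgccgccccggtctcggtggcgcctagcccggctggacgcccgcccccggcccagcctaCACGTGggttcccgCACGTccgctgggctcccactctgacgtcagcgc

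These stretches lie at chr12:73907617-73907866 on the plus strand, chr6:82774455-82774704 on the minus strand, chrX:106186850-106187099 on the plus strand and chr7:46845554-46845803 on the plus strand, in the same order. None of the stretches overlaps an annotated exon of these genes in GENCODE vM21. They hold 3, 2, 2 and 5 matches, and the whole window of Ldha holds 7. The second window of Hk1, whose level varied least over the 6 libraries, held 5 matches. A match of these letters is a description of the sequence and was not tested for binding.

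Hif1a (chromosome 12 of GRCm38, 73901375 to 73947530) was at 621, 523 and 578 CPM across the WT libraries, against 669, 656 and 621 CPM across the cKO libraries. WT replicate 2 was the lowest library, and WT replicate 1 alone reached the range of the cKO libraries. Means were 574 ± 49.0 CPM for WT and 649 ± 24.7 CPM for cKO (SD, n = 3). In edgeR's quasi-likelihood test the cKO to WT ratio of Hif1a was 0.18 on the log2 scale (standard error 0.16, 95% interval -0.20 to 0.55, adjusted p = 0.984). This was 0.11 with WT replicate 2 left out (95% interval -0.25 to 0.47). Hif1a kept this sign in all 14 alternative analyses, between 0.11 and 0.24, and passed the threshold in none of them. It overlaps the noncoding gene models Gm49321 on the same strand and Gm15283 on the other, and strand use in counting is not given in the sources used here.

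Hexokinase, which phosphorylates glucose on its entry into the cell, was represented by Hk1 and Hk2. Hk1 (chromosome 10, 62268855 to 62379908), the form found in most tissues, was at 113, 111 and 94.7 CPM across the WT libraries, against 109, 111 and 101 CPM across the cKO libraries. Its log2 fold change was 0.01 (standard error 0.13, 95% interval -0.31 to 0.32), the narrowest interval among the 10 genes over all 6 libraries, and 0.04 without WT replicate 2. Hk1 was the only enzyme of the 9 that was not lowest in WT replicate 2. It overlaps the antisense gene Hk1os.

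Hk2 (chromosome 6, 82725025 to 82774454), the inducible form that activated T cells raise, was far less abundant. The WT libraries held 193, 11 and 185 counts of it and the cKO libraries 148, 157 and 140. Scaled to the library, these were 9.23, 0.517 and 9.64 CPM for WT and 6.87, 7.54 and 6.23 CPM for cKO. WT replicate 2 was thus 15.3-fold below the mean of the other 5 libraries, while the 3 cKO libraries lay below both other WT libraries. How many genes share this order was not counted, so it is not read as a change of Hk2. The log2 fold change was 0.09 (standard error 0.88, 95% interval -1.96 to 2.14) over all 6 libraries. Leaving out WT replicate 2 gave -0.46 (standard error 0.20, 95% interval -0.92 to 0.00), with an unadjusted p of 0.0515 by edgeR (adjusted p of 0.997).

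Phosphofructokinase commits the sugar to glycolysis, and aldolase then splits it into a pair of 3-carbon sugars. Pfkl (chromosome 10, 77986947 to 78010083), the liver-type subunit of the former, was at 111, 58.7 and 68.6 CPM across the WT libraries, against 89.4, 81.6 and 72.0 CPM across the cKO libraries. Aldoa (chromosome 7, 126795234 to 126800751), the main aldolase outside liver and brain, was at 1186, 423 and 763 CPM in the WT libraries and at 719, 942 and 753 CPM in the cKO libraries, in the same order. For both genes WT replicate 1 was the highest library and WT replicate 2 the lowest, with the cKO libraries between. The log2 fold change was 0.03 for Pfkl (standard error 0.25, 95% interval -0.54 to 0.60). For Aldoa it was 0.03 (standard error 0.36, 95% interval -0.81 to 0.87). They were -0.15 and -0.28 without WT replicate 2, with standard errors of 0.20 and 0.23.

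The next enzymes carry the 3-carbon sugars through the steps that make NADH and ATP. Gapdh (chromosome 6, 125161715 to 125166467), which makes the NADH and is a common reference gene, was at 4190, 1390 and 2765 CPM across the WT libraries, against 2793, 3326 and 2765 CPM across the cKO libraries. The highest library was 3.01-fold above the lowest, and both were WT libraries. Means were 2782 ± 1400 CPM for WT and 2961 ± 316 CPM for cKO (SD, n = 3), and the log2 fold change was 0.09 (standard error 0.40, 95% interval -0.84 to 1.02). It was -0.23 without WT replicate 2 (standard error 0.24, 95% interval -0.79 to 0.32). The counts of Gapdh were not whole numbers in any of the 6 libraries, as when reads shared with near-identical copies are divided, so its level is uncertain to that extent. Those of Pfkl, Aldoa and Eno1 were not whole in 2 libraries each. Genes overlapping on the other strand are Iffo1 for Gapdh, Fam57b for Aldoa and Gm17034 for Hk2, and Gm49759 lies on the same strand as Pkm.

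Pgk1 (chromosome X, 106187100 to 106203699), the first of the ATP-making enzymes, was at 390, 84.0 and 275 CPM across the WT libraries, against 260, 345 and 271 CPM across the cKO libraries. WT replicate 2 was 3.67-fold below the mean of the other libraries, the largest gap among the members after Hk2. Its log2 fold change was 0.23 (standard error 0.48, 95% interval -0.89 to 1.35), and -0.19 without WT replicate 2 (standard error 0.21, 95% interval -0.65 to 0.28).

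Eno1 (chromosome 4, 150236721 to 150248879), which makes phosphoenolpyruvate, was at 1061, 391 and 808 CPM in the WT libraries and at 779, 866 and 741 CPM in the cKO libraries. Again WT replicates 1 and 2 were the highest and the lowest of the 6. The log2 fold change was 0.08 (standard error 0.34, 95% interval -0.73 to 0.88), and -0.23 without WT replicate 2 (standard error 0.19, 95% interval -0.66 to 0.20).

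The pathway ends with pyruvate kinase and lactate dehydrogenase. Pkm (chromosome 9, 59656368 to 59679375), whose splice forms the deposited counts do not separate, was at 1307, 724 and 978 CPM across the WT libraries, against 1022, 1116 and 971 CPM across the cKO libraries. Ldha (chromosome 7, 46841475 to 46855627), which reduces pyruvate to lactate, was at 1210, 498 and 796 CPM in the WT libraries and at 825, 993 and 860 CPM in the cKO libraries. For both genes the groups overlapped, and the cKO libraries were closer to each other than the WT libraries were. The log2 fold changes were 0.05 for Pkm (standard error 0.25, 95% interval -0.54 to 0.63) and 0.10 for Ldha (standard error 0.32, 95% interval -0.65 to 0.84). They turned to -0.14 and -0.17 without WT replicate 2, with standard errors of 0.20 and 0.22.

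**Figure D1:**
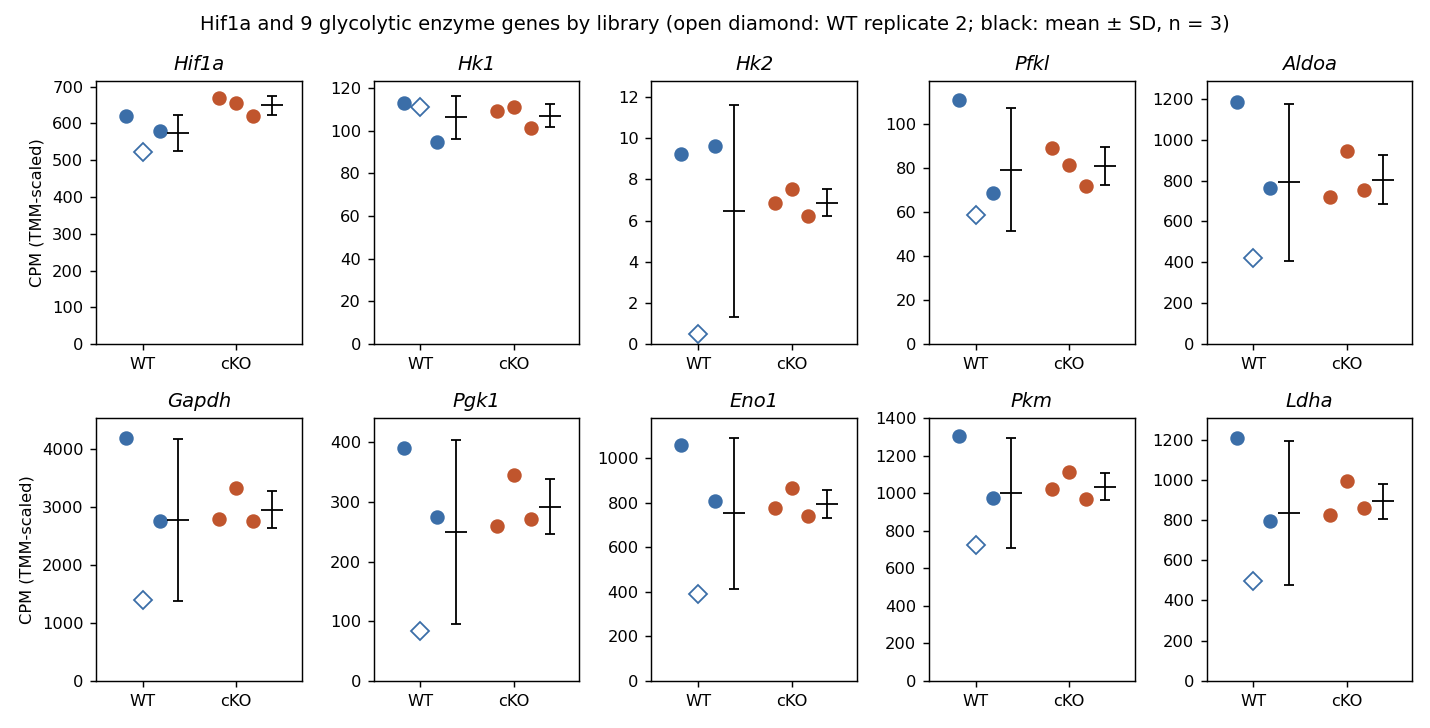
Each panel plots 1 gene in CPM against group, with a point per library, an open diamond for WT replicate 2 and the group mean ± SD (n = 3) in black. The cKO libraries lie between WT replicates 1 and 2 for 8 of the 10 genes.

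Whether deletion of Ku70 changed the expression of these genes was addressed by the comparison of cKO with WT. By edgeR's quasi-likelihood test, 0 of the 10 genes passed an adjusted p of 0.05, with values from 0.984 to 0.996, and 0 of 10 had an unadjusted p under 0.05. The background for the latter was 1.81% of the 15315 genes tested, and that for an adjusted p under 0.05 was 0 of 15315, or 0%. Xrcc6, the targeted gene, differed in this fit by -3.06 on the log2 scale, with an unadjusted p of 0.000306 by edgeR (adjusted p of 0.984). The adjusted limit thus did not call the deleted gene either, and 0 of 10 does not show that no member changed. DESeq2 also gave 0 of 10 members, where it called 0.0131% of 15265 genes by the adjusted and 2.01% by the unadjusted limit, and limma's voomWithQualityWeights likewise gave 0 of 10. All 10 log2 fold changes were above 0, with a median of 0.08, beside a median of 0.04 over all genes tested, of which 8343 were above 0. With WT replicate 2 left out, 8 of the 10 were below 0, with a median of -0.18 beside -0.01 over all genes. Again 0 of 10 had an unadjusted p under 0.05 without that library, where 3.01% of 15302 genes had one and 0.00654%, a single gene, Xrcc6, had an adjusted p under 0.05. In no member did the groups separate without overlap, while 5.01% of all genes did so with the cKO group higher and 3.23% with it lower. The exact two-sided permutation test of the mean gave p = 0.2 for Hif1a and between 0.8 and 1 for the enzymes, and 3 libraries against 3 cannot give less than 0.1. The intervals were wide enough that a change of 1 on the log2 scale was not outside those of Hk2, Gapdh and Pgk1, whereas for Hif1a and Hk1 they ended at 0.55 and 0.32.

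**Figure D2:**
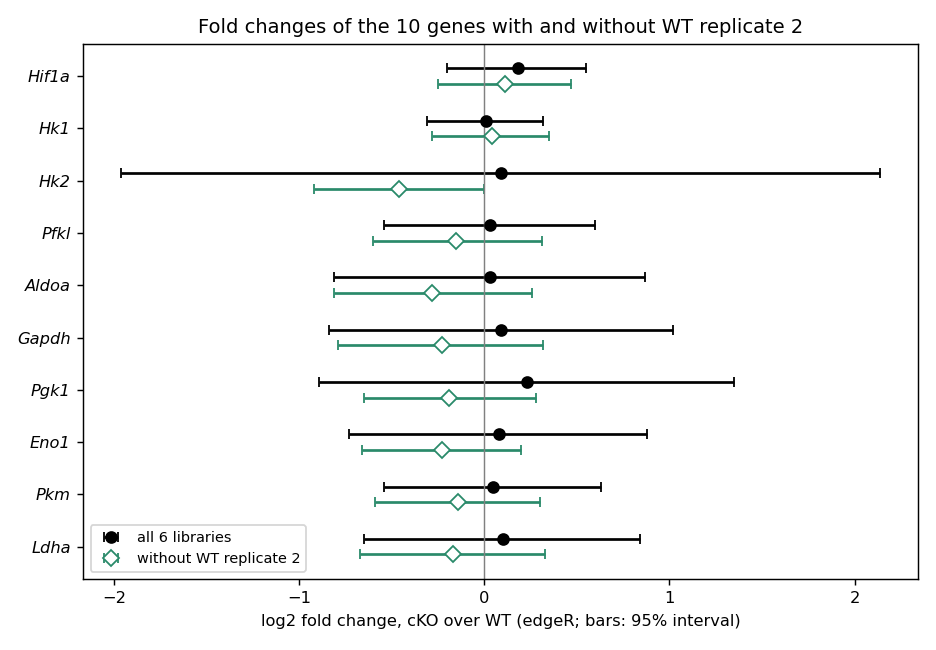
Points give the log2 ratio of cKO to WT for each gene with its 95% interval from edgeR, over all 6 libraries (black) and without WT replicate 2 (green). Every interval spans 0 or, for Hk2 without WT replicate 2, ends at 0.00, and the values of 8 genes move from above to below 0.

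The highest and the lowest library of most enzymes were both WT libraries. WT replicate 1 was the highest of the 6 libraries in 8 of the 9 enzymes, the exception being Hk2, and 19.5% of all genes of at least 10 CPM were highest there. WT replicate 2 was the lowest library in 8 of the 9 enzymes and in Hif1a. Of the 9 members of at least 10 CPM, 8 were lowest there, beside 40.8% of 8436 genes of at least 10 CPM in the other libraries. For each of the other libraries, 7.41 to 18.2% of genes were lowest there. In 8 members WT replicate 1 was above and WT replicate 2 below every cKO library, beside 14.7% of genes of at least 10 CPM. These members include Hk2, which is under 10 CPM. The 9 enzymes together took 0.923, 0.404 and 0.661% of all counts across the WT libraries, against 0.685, 0.724 and 0.635% across the cKO libraries. The summed Treg and T cell markers were highest in WT replicate 1 at 5257 CPM and lowest in WT replicate 2 at 3963 CPM. This order did not hold for each marker. Of the 7 markers, 4 were lowest in WT replicate 2, while Ctla4 had 29687 counts there against 26423 in WT replicate 1. The summed macrophage markers, at 194, 774 and 754 CPM for WT and 252, 577 and 1146 CPM for cKO, were lowest in WT replicate 1, and the part of either in the enzymes' order was not tested. No test was applied to this order, since it was seen in the values first.

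The ratio of WT replicate 2 to the mean of the other 5 libraries, on the log2(CPM + 0.5) scale, was graded along the members. It was 0.06 for Hk1 and -0.26 for Hif1a, close to the median of -0.04 over all genes of at least 10 CPM. Pfkl, Pkm and Ldha followed at -0.52, -0.57 and -0.91. Aldoa, Eno1 and Gapdh were at -1.04, -1.12 and -1.19, Pgk1 at -1.87 and Hk2 at -3.05. Of the 9 members of at least 10 CPM, 4 had a value of -1 or lower, where 14.8% of genes did, and 4.91% of genes were lower than Pgk1. Over all genes, this ratio also differed with transcript length. Its median was -0.27 in the quartile of genes with the shortest transcripts and 0.10 in the quartile with the longest. By abundance the quartile medians were level, from -0.08 to 0.00, but the most abundant 1% of genes, to which Gapdh alone of the members belongs, had a median of -0.92. The longest transcripts of the members measured 1549 bases for Aldoa to 5513 bases for Hk2. The part of transcript length, abundance and the lower number of detected genes in these values was not tested.

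**Figure D3:**
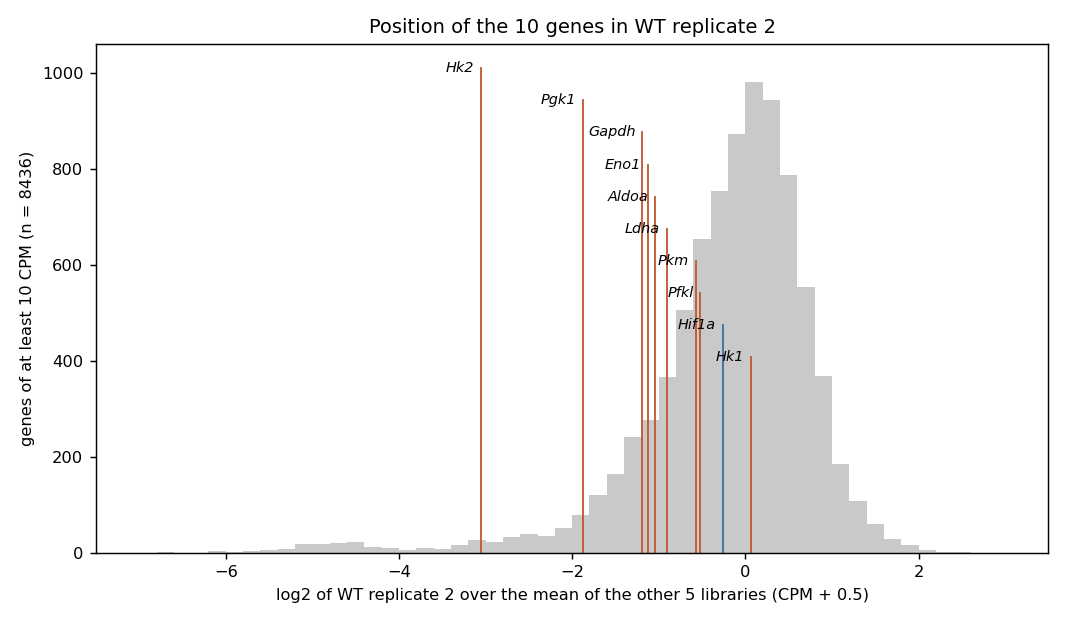
The grey histogram shows the log2 ratio of WT replicate 2 to the mean of the other 5 libraries for 8436 genes of at least 10 CPM, and lines, whose heights only space the names, mark the members (blue for Hif1a, while Hk2 is under 10 CPM and not in the histogram). Hk1 and Hif1a sit near the centre, and Pgk1 and Hk2 at -1.87 and -3.05 on the lower side.

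Ratios within a library do not depend on how it is scaled, and the enzymes were therefore also set against Gapdh. From the counts, the log2 ratio of Eno1 to Gapdh stayed between -1.98 and -1.78 over all 6 libraries, that of Aldoa between -1.96 and -1.72, and that of Ldha between -1.80 and -1.48. These enzymes thus varied together with Gapdh from library to library, and how many other genes did so as closely was not counted. The range was 0.74 for Pkm, 0.78 for Pfkl, 0.78 for Pgk1 and 3.23 for Hk2. Without WT replicate 2 these were 0.23, 0.38, 0.16 and 0.66, beside 0.21 for Eno1. The ratio of Hk1 to Gapdh ran from -5.21 in WT replicate 1 to -3.65 in WT replicate 2, and that of Hif1a from -2.75 to -1.41 in the same libraries. Over the 5 libraries other than WT replicate 2, the range of the ratio was at most 0.69, in Hif1a, and at least 0.11, in Ldha. These ratios were chosen after the values were seen and were not tested between groups.

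Coefficients of variation over the 6 libraries were 6.75% for Hk1 and 8.74% for Hif1a, lower than in all but 4.06% and 9.54% of genes of at least 10 CPM. Without WT replicate 2 they were 7.33% and 5.62%, above 19% and 9.06% of genes. Those of the other enzymes ran from 18.8% for Pkm to 49.4% for Hk2, beside a median of 19.1% over 8447 genes. Gapdh, at 31.8%, varied more than 80.7% of genes. It was at 19.6% without WT replicate 2, above 86.4% of genes in the 5 libraries, whose median was 11.5%. Actb, the reference gene of the study's RT-qPCR, was at 21.6% over all libraries and 11.2% without WT replicate 2.

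Isozyme shares asked whether the form of an enzyme differed between the groups, with counts divided by the exon length of each gene. Hk2 made up 10.4, 0.664 and 12.7% of hexokinase (Hk1 and Hk2) across the WT libraries, against 8.29, 8.84 and 8.09% across the cKO libraries. Means were 7.93 ± 6.39% for WT and 8.41 ± 0.389% for cKO (SD, n = 3, exact two-sided permutation test, p = 1). Leaving out WT replicate 2, the WT mean was 11.6% and the cKO minus WT difference -3.15 percentage points. Pfkl made up 53.5, 58.6 and 42.4% of phosphofructokinase (Pfkl, Pfkm and Pfkp) in the WT libraries and 48.4, 48.0 and 47.6% in the cKO libraries (exact two-sided permutation test, p = 0.6). Ldha made up 92.0, 95.4 and 88.5% of lactate dehydrogenase (Ldha and Ldhb) in the WT libraries and 88.5, 89.4 and 86.6% in the cKO libraries (exact two-sided permutation test, p = 0.2). Ldha was thus the main form in every library, and no share separated the groups over all 6 libraries. With WT replicate 2 left out, the Hk2 share of both WT libraries was above that of every cKO library, and the cKO minus WT differences of the Pfkl and Ldha shares were 0.0525 and -2.11 percentage points. This order of the Hk2 share was not tested, and how often other genes show it was not counted. It is therefore not read as a difference between the groups. With WT replicate 3 left out instead, the cKO minus WT difference of the Hk2 share was 2.87 percentage points. From counts not divided by length, the Hk2 share was 7.52, 0.466 and 9.24% for WT and 5.95, 6.35 and 5.80% for cKO. The size of the share thus depends on the length used.

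**Figure D4:**
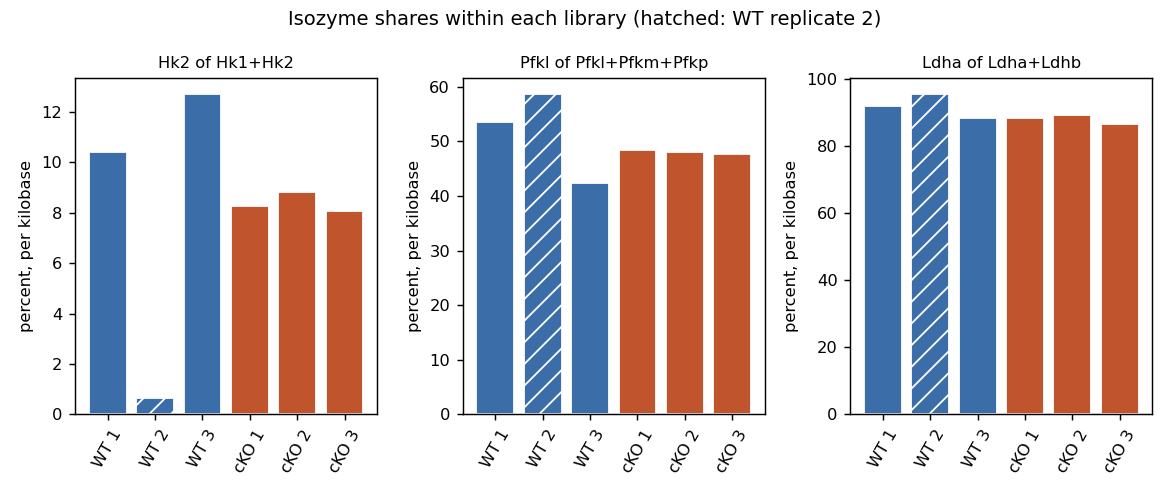
Bars give the share of Hk2, Pfkl and Ldha among the named isozyme genes in each library, in percent of counts per kilobase, with WT replicate 2 hatched. The Hk2 share is 0.664% in that library and 8.09 to 12.7% in the other 5.

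Per kilobase of exon, which allows genes to be compared, Gapdh was the most abundant member at 695 ± 221 CPM per kilobase (SD over the 6 libraries). Aldoa at 274 ± 87.2 and Ldha at 261 ± 71.0 CPM per kilobase followed, and their order did not hold, with Aldoa above Ldha in 3 of 6 libraries. Pkm at 204 ± 38.3, Eno1 at 144 ± 40.7 and Pgk1 at 121 ± 46.6 CPM per kilobase came next. Each of Pkm and Eno1 was above its next neighbour in all 6 libraries. Hif1a, a transcription factor gene, reached 104 ± 9.06 CPM per kilobase and was above Pgk1 in WT replicate 2 only. Hk1 at 12.5 ± 0.844 and Pfkl at 12 ± 2.75 CPM per kilobase did not differ beyond their spread, and Hk2 was lowest at 1.12 ± 0.552. With the longest transcript as the length, all 10 genes kept their place, but the levels were higher. Gapdh was then at 873, Pkm at 419 and Eno1 at 382 CPM per kilobase, so the size of a level depends on the length used.

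The rest of the pathway was read from a wider list. Of 32 further glycolysis genes, 25 were listed and had counts, 13 with a log2 fold change above 0 and 12 below, and a median of 0.05 over all 6 libraries and -0.13 without WT replicate 2. At an unadjusted p under 0.05 from edgeR, 1 of the 25 was higher in the cKO group (background 0.94%) and 0 lower (background 0.868%). The higher gene was Slc2a3, which encodes the glucose transporter GLUT3. It was at 72.2, 65.9 and 70.9 CPM across the WT libraries, against 80.6, 89.8 and 94.6 CPM across the cKO libraries. The groups did not overlap, as in 5.01% of all genes with the cKO group higher. The difference was 0.34 on the log2 scale (standard error 0.13), with an unadjusted p of 0.0327 by edgeR, and did not pass correction (adjusted p of 0.984). The exact permutation test gave 0.1, the smallest p it can give. In the fit without WT replicate 2 the difference was 0.30, with an unadjusted p of 0.0502 by edgeR.

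The most abundant of these genes were also low in WT replicate 2. Tpi1, the isomerase of the 3-carbon sugars, was at 268, 28.6 and 147 CPM across the WT libraries, against 159, 172 and 133 CPM across the cKO libraries, and thus 6.15-fold below the other libraries in WT replicate 2. Gpi1 and Pgam1 were 2.46-fold and 2.33-fold below the others there, and their log2 fold changes were 0.40 (standard error 0.34) and -0.03 (standard error 0.39). That of Tpi1 was 0.06 (standard error 0.64). Over the 5 libraries without WT replicate 2 the values of Gpi1, Pgam1 and Tpi1 were 0.09, -0.37 and -0.43. In the fit without WT replicate 2, 2 of the 25 genes had an unadjusted p under 0.05 from edgeR, Pfkfb1 and Fbp2, both lower (background 1.5%), and 0 were higher (background 1.52%). Pfkfb1, which encodes a regulator of phosphofructokinase, was at 4.3, 6.86 and 3.65 CPM in the WT libraries and at 2.60, 2.11 and 1.87 CPM in the cKO libraries. Its groups did not overlap either, as in 3.23% of all genes with the cKO group lower. Fbp2 had at most 3 counts in any library, so its level cannot be compared at this depth.

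Around HIF-1, 14 genes of its partners and oxygen sensors had counts, with a median log2 fold change of 0.01, and 1 was lower at an unadjusted p under 0.05 from edgeR (background 0.868%). This was Arnt2, a paralog of the HIF-1α partner Arnt, at 12.8, 29.0 and 16.0 CPM across the WT libraries, against 10.2, 11.2 and 9.96 CPM across the cKO libraries. The groups did not overlap, as in 3.23% of all genes with the cKO group lower. The difference was -0.88 on the log2 scale (standard error 0.35), with an unadjusted p of 0.0386 by edgeR (adjusted p of 0.984). Leaving out WT replicate 2, Arnt2 differed by -0.46, with an unadjusted p of 0.0319 by edgeR (adjusted p of 0.997). Elob and Rbx1, subunits of the ligase complex that marks HIF-1α for destruction, and Cited2 were the most abundant, with log2 fold changes of 0.18, 0.20 and 0.05. The values of Elob and Rbx1 turned to -0.13 and -0.15 without WT replicate 2, and that of Cited2 was 0.10.

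Of 19 HIF-1 targets outside glycolysis with counts, 0 had an unadjusted p under 0.05 from edgeR in either direction over all 6 libraries, and their median log2 fold change was -0.05. Ddit4, Bnip3l and Mxi1, the most abundant, had values of -0.05, 0.11 and 0.05, with standard errors of 0.16, 0.16 and 0.26, and of -0.09, 0.01 and -0.07 without WT replicate 2. In the 5 libraries without WT replicate 2, 1 target was higher and 2 were lower at an unadjusted p under 0.05 from edgeR, namely Plod1 (0.53), Fam162a (-0.47) and Ankrd37 (-0.54), beside a background of 1.52% higher and 1.5% lower. Each had an adjusted p of 0.997 by edgeR in that fit. Over all 6 libraries their log2 fold changes were 0.21, -0.09 and -0.56, with unadjusted p of 0.587, 0.845 and 0.199 by edgeR.

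Genes that feed from or control the pathway were described in the same way. Of 15 genes that take pyruvate into mitochondria, 1 was higher at an unadjusted p under 0.05 from edgeR (background 0.94%), Pdk4, an inhibitor of pyruvate dehydrogenase, with 0 counts in the WT libraries and 6, 2 and 1 counts in the cKO libraries. With at most 6 counts of Pdk4 in any library, no fold is given. Pdha1, Mpc1 and Pdhb, the most abundant, had log2 fold changes of 0.05, -0.37 and -0.23, and were each higher in WT replicate 2 than the mean of the other libraries. Over those other libraries the values were 0.10, -0.09 and 0.02. Of the 8 genes of the pentose phosphate pathway, 0 had an unadjusted p under 0.05 from edgeR. Tkt, Taldo1 and Pgd had log2 fold changes of 0.25, 0.14 and 0.18 (standard errors 0.19, 0.21 and 0.19), and of 0.09, -0.04 and 0.06 without WT replicate 2. Among 10 upstream controls 0 had one. Txnip, which limits glucose uptake, was at 235, 327 and 490 CPM across the WT libraries, against 430, 584 and 651 CPM across the cKO libraries, a difference of 0.66 on the log2 scale (standard error 0.30), with an unadjusted p of 0.0586 by edgeR (adjusted p of 0.984). Akt2 and Myc had values of 0.01 and -0.30, with standard errors of 0.15 and 0.31, and of 0.13 and 0.03 without WT replicate 2.

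Genes whose profile over the 6 libraries was among the closest to that of Hif1a were Slc35e1, Crnkl1, Vars and Copg1, of 8446 genes of at least 10 CPM. Likeness was the root mean square difference of centred log2(CPM + 0.5) values, which was 0.0376 to 0.0418 for these genes. Of the 8 enzymes of at least 10 CPM, Hk1 was closest at 0.136, in place 1023, and Pgk1 farthest at 0.629, in place 7798.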

How the data were processed

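Tumor-infiltrating Tregs were profiled by RNA-Seq in 3 libraries of each group. The values deposited by the authors were expected counts for each gene symbol, not normalized, and the genome build was GRCm38. The submitters' processing notes list Bowtie2 (version 2.3.4.3) and RSEM (version 1.3.1), and the annotation is not given in the sources used here. Of the values, 21.6% were not whole and were rounded. The 15315 genes with at least 1 count were tested with edgeR's quasi-likelihood test (version 4.0.16) in R (version 4.3.3), with TMM scaling, group as the only term and Benjamini-Hochberg adjustment. Standard errors and 95% intervals came from the fold change and the F statistic. Alternatives used DESeq2 (version 1.42.0), limma (version 3.58.1), other scaling, filtering and dispersion settings, a replicate block and the omission of each library in turn.

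Gene lengths and positions were from GENCODE vM21 (14783 symbols matched), and promoter windows from RefSeq. The members and gene lists were chosen with earlier results of these data known. Named genes were the members, Xrcc6, the 3 most abundant genes of each pathway list and those with an unadjusted p under 0.05 with or without WT replicate 2 (at most 5 a list), and for Hif1a the 5 genes with the most similar profile, of which 1 is not reported here. Actb was added after the data were seen. Intervals cover the spread between libraries.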

Additional observations from a re-analysis of the deposited data

How the results depend on the processing

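In all 14 alternatives, 0 of the 10 members passed an adjusted or an unadjusted p of 0.05, whereas directions turned in several. Library size in place of TMM gave Hk1, Pfkl and Aldoa log2 fold changes of -0.05, -0.01 and -0.01. limma's voomWithQualityWeights gave -0.32 for Hk2, -0.04 for Pfkl, -0.11 for Aldoa, -0.08 for Gapdh, -0.02 for Pgk1, -0.13 for Eno1, -0.06 for Pkm and -0.01 for Ldha. DESeq2 without WT replicate 2 gave -0.46, -0.15, -0.28, -0.23, -0.19, -0.23, -0.14 and -0.17 for the same genes. Leaving out 1 library at a time, log2 fold changes ran from -0.06 to 0.06 for Hk1, -0.46 to 0.50 for Hk2, -0.15 to 0.35 for Pfkl, -0.28 to 0.44 for Aldoa, -0.23 to 0.51 for Gapdh, -0.19 to 0.70 for Pgk1, -0.23 to 0.41 for Eno1, -0.14 to 0.28 for Pkm and -0.17 to 0.46 for Ldha. The median of the members lay between -0.18 (WT replicate 2 left out) and 0.42 (WT replicate 1 left out). The cKO minus WT difference of the Hk2 share of hexokinase lay between -3.15 (WT replicate 2 left out) and 2.87 percentage points (WT replicate 3 left out). The causes of these shifts were not tested.

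Over all genes, DESeq2 called 1 higher and 1 lower gene at an adjusted p under 0.05, where edgeR called 0, and 1 higher and 2 lower without WT replicate 2. edgeR without each library in turn called 0 to 1 lower genes. At an unadjusted p under 0.05, edgeR called 144 higher and 133 lower genes, DESeq2 95 and 212, and voomWithQualityWeights 262 and 281. filterByExpr, which tests fewer genes, left 39 higher and 101 lower genes. Leaving out each library gave 45 to 287 higher and 20 to 601 lower genes. Without WT replicate 1, 2 or 3 these were 273, 232 and 287 higher and 601, 229 and 288 lower, and without cKO replicate 1, 2 or 3 they were 96, 51 and 45 higher and 88, 21 and 20 lower.

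Whether the replicate numbers pair libraries across the groups could not be settled from so few libraries. Deviations from the group means of same-numbered libraries correlated across genes at -0.00598, -0.18 and 0.173. Those of differently numbered libraries correlated at -0.281 to 0.275. With the replicate number as a block, edgeR called 39 higher and 46 lower genes at an unadjusted p under 0.05, and the median log2 fold change of the members was 0.18. The level of Hk2 in WT replicate 2 rests on 11 counts. That library had a total count of 19376740, above the 19032620 of WT replicate 3, which held 185 counts of Hk2. Arms of 2 libraries rest on a spread shared with the other group.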
